A study of Homo sapiens with 4 samples.

Results

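The genes of the pentose phosphate pathway around *TKTL1* were followed in HML58-3 cells treated with DNA-demethylating drugs. The members were 8 genes, *TKTL1*, *TKTL2*, *TKT*, *TALDO1*, *PGD*, *PGLS*, *RPE* and *RPIA*, of 25006 genes named on the array. They were chosen by gene symbol, through the RefSeq accession that the array gives for each probe, and each was measured by 1 probe with 1 spot. The group was picked for the very large difference of *TKTL1* with all the drugs, so that its differences from mock are a description and support nothing. HML58-3 is a derivative of the colon cancer line HCT116 engineered with a luciferase reporter whose promoter is methylated, and all 4 groups share this background. One group was mock treated. The others received 1 μM of OR-2003, of OR-2100 or of DAC (decitabine) on day 1, and all cells were collected on day 5. DAC is a cytidine analogue that traps DNA methyltransferase, and the study describes OR-2003 and OR-2100 as prodrugs of DAC. Every condition had 1 array, a one-colour Agilent expression microarray. Without replicates there was no test, and no p-value is printed.

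The pentose phosphate pathway branches from glycolysis at glucose 6-phosphate. Its oxidative arm makes NADPH, which feeds lipid synthesis and the glutathione and thioredoxin systems, and includes 6-phosphogluconolactonase (*PGLS*) and 6-phosphogluconate dehydrogenase (*PGD*). Its non-oxidative arm interconverts sugar phosphates and yields ribose 5-phosphate for nucleotides. Ribose 5-phosphate isomerase (*RPIA*) and ribulose 5-phosphate epimerase (*RPE*) feed this arm, and transketolase (*TKT*, which needs thiamine diphosphate) and transaldolase (*TALDO1*) carry carbon back to glycolysis. *TKTL1* and *TKTL2* are transketolase-like genes, and *TKTL1*, on the X chromosome, is known for expression in testis and in some tumors.

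Because the drugs act on DNA methylation at CG dinucleotides, the start regions of the transketolase family are shown first. They are the RefSeq sequences of assembly GRCh38.p14 from 250 bases before to 50 bases after a gene start, 5′ to 3′ on the strand of the gene, with each CG in capitals. *TKTL1* has 2 start sites in this table, at chrX:154295545-154295844 and chrX:154304920-154305219, both on the plus strand. *TKTL2* lies at chr4:163473705-163474004 and *TKT* at chr3:53255973-53256272, both on the minus strand.
TKTL1, first start: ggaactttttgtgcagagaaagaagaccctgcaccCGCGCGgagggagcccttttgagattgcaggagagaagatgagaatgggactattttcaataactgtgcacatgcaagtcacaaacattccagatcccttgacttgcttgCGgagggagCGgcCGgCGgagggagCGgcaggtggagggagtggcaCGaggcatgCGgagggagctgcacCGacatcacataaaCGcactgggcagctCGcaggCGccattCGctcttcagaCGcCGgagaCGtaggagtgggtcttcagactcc
TKTL1, second start: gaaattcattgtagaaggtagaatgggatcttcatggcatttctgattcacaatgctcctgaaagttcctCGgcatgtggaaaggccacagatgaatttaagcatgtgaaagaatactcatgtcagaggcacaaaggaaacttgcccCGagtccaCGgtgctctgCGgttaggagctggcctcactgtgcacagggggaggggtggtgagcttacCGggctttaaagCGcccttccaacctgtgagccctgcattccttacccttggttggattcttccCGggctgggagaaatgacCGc
TKTL2: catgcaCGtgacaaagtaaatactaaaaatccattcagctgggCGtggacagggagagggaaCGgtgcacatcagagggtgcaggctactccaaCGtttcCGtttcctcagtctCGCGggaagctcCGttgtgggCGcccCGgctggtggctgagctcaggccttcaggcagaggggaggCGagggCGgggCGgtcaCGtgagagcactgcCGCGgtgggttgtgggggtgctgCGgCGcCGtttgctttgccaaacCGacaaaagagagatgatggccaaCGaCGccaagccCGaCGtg
TKT: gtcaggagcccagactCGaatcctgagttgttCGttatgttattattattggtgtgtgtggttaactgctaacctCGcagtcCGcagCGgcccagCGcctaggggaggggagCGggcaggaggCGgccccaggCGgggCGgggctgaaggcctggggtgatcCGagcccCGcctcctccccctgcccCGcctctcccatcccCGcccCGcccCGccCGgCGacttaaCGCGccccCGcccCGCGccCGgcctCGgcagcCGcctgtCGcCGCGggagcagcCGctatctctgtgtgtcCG
The first start of *TKTL1* held 18 CG and the second held 8. Of the 35116 start regions of this length in the table, 44.5% held at least as many as the first and 60.7% at least as many as the second, and 96.0% held any CG. *TKTL2* held 24 and *TKT* held 31. The other members held 44 (*TALDO1*), 35 (*PGD*), 29 (*RPIA*), 27 (*PGLS*) and 24 (*RPE*), so that both starts of *TKTL1* had fewer CG than the start of any other member. The methylation of these regions was not analysed here.

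Levels are given as the log2 intensity of the spot relative to a zero at the 75th percentile of all gene probes on that array. Following the methods of the study, a level of -1 or more counts as positive expression. Induced genes were those 2-fold or more above mock that reached -1 or more with the drug, and reduced genes those 2-fold or more below a mock level of -1 or more. Values given for the drugs in turn stand in the order of DAC, OR-2003, OR-2100. Between 54.3% and 57.2% of the 58201 gene probes were well above background on each array, and no gene spot was saturated. The spot error that the scanner software gave for the bright members was 10.0% of the intensity, or 0.14 on the log2 scale. Probes with 10 spots had a median SD of 0.06 to 0.07 between spots where their level was -1 or more, and of 0.16 to 0.21 where they were dimmer but well above background. Neither error covers the difference between cultures. The median difference from mock, among 27921 probes that stood well above background everywhere, was -0.21 (DAC), -0.19 (OR-2003) and -0.23 (OR-2100).

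*TKTL1* was under the level of positive expression without drug and had one of the largest differences on the array with each of them. Its intensity was 36.1 on the mock array, 77000.1 with DAC, 73059 with OR-2003 and 71556.5 with OR-2100. Its levels were -2.08, 8.77, 8.78 and 8.67 in the same order, and the spot was well above background on all 4 arrays. The 3 drug-treated levels lay together far above the mock level. The log2 differences from mock were 10.85 ± 0.21 with DAC, 10.86 ± 0.21 with OR-2003 and 10.75 ± 0.21 with OR-2100 (software error of both spots). These are ratios of 1845, 1856 and 1719.6. Set among those 27921 probes, the probe of *TKTL1* had the rank 2 with DAC, 2 with OR-2003 and 3 with OR-2100. Among all 58201 gene probes, including those not well above background, its rank was 9, 9 and 10. The mock spot was dim, at a median pixel signal of 71 over a local background of 28. The size of the ratio thus depends on how this background is handled and on any offset. With normexp background correction and an offset of 50, the log2 differences were 9.63, 9.59 and 9.54. The offset is added to every intensity and by itself makes the log2 difference of a dim gene smaller. The part of the background correction cannot be told apart from it here.

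*TKTL2*, the other transketolase-like gene, could not be told from background in the mock-treated cells. Its intensity was 2.04 with mock, 17.3 with DAC, 11.9 with OR-2003 and 13.4 with OR-2100. The 3 drug-treated spots were well above background and the mock spot was not, but all 4 levels, -6.22, -3.35, -3.80 and -3.71, were under that of positive expression. Taken against the dimmest mock signal that still stood well above background, *TKTL2* was at least 1.91-fold higher with DAC, at least 1.40-fold with OR-2003 and at least 1.49-fold with OR-2100. It was called neither induced nor reduced. These bounds rest on the software's own background correction, and with normexp the measured log2 difference of *TKTL2* was as low as 0.09.

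*TKT*, which encodes the main transketolase, was lower with each drug. Its levels were 7.40 with mock, 6.58 with DAC, 6.56 with OR-2003 and 6.43 with OR-2100, and the mock level lay above the 3 others. The log2 differences of -0.82, -0.85 and -0.97, each ± 0.20, did not reach 2-fold. Relative to the median difference of probes well above background, they were -0.61, -0.66 and -0.74. Of the 15977 genes well above background on all arrays, 16.0%, 15.2% and 13.3% had a lower difference in the same order. With the median of all gene probes in place of the percentile, *TKT* passed 2-fold with OR-2003 and OR-2100, at -1.07 and -1.06.

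The other enzymes of the non-oxidative arm differed less. *TALDO1*, the transaldolase, had levels of 6.49 with mock and 6.56, 6.51 and 6.42 with the drugs in turn, and its differences of 0.07, 0.02 and -0.07 changed sign between scalings. *RPIA*, the isomerase that makes ribose 5-phosphate, went from 4.73 with mock to 4.47, 4.34 and 4.25. Its differences of -0.26, -0.40 and -0.48 were -0.05, -0.21 and -0.25 relative to the median of probes well above background, and stayed negative under every scaling tried. *RPE*, the epimerase, was the member other than the transketolase-like genes with a higher level in all drug-treated cells, at 0.98 with mock and 1.53, 1.56 and 1.46 with the drugs. Its differences were 0.55, 0.58 and 0.48, each ± 0.20, and were positive under every scaling tried. *RPE* has a close copy, *RPEL1*, whose own probe was not well above background on any array.

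In the oxidative arm, *PGLS* was reduced with all 3 drugs. This gene encodes the lactonase of the arm, and its levels were 5.48 with mock, 4.15 with DAC, 4.12 with OR-2003 and 4.06 with OR-2100. All drug-treated levels lay together under the mock level, with log2 differences of -1.33, -1.36 and -1.42, each ± 0.20, or 2.52, 2.57 and 2.67-fold lower. *PGLS* was still more than 2-fold lower under each scaling tried, the smallest difference being -1.13. *PGD*, an NADPH-producing dehydrogenase of the arm, had levels of 3.30 with mock and 3.03, 2.92 and 2.98 with the drugs. Its differences of -0.26, -0.37 and -0.32 were close to the median of probes well above background.

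Of the 8 members, 1 (*TKTL1*) was called induced with each drug, against a background over all named genes of 5.77% with DAC, 5.89% with OR-2003, 5.81% with OR-2100 and 5.27% with all 3. Another 1 (*PGLS*) was called reduced with each drug, where the background was 5.96%, 6.05% and 6.82%, and 5.21% with all 3. Since *TKTL1* was chosen by this contrast, and 1 of 8 is 12.5%, nothing is read from these shares. The median log2 difference of the 8 members was -0.10, -0.18 and -0.19 with the drugs in turn. An intensity relative to the whole array cannot tell a change in RNA per cell from a change in the share of cells that express the gene.

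The 3 drugs, all at 1 μM and the same times, were then compared directly, leaving the mock array aside, in 24 comparisons of 8 members in 3 pairs. *TKTL1* differed between OR-2003 and DAC by 0.01, with a 95% interval of the spot error from -0.39 to 0.41. OR-2100 differed from DAC by -0.10 (-0.50 to 0.30) and from OR-2003 by -0.11 (-0.51 to 0.29). Among the 15977 genes well above background on all arrays, 93.2%, 53.4% and 50.2% differed by at least as much in these pairs. The interval held 0 in all 24 comparisons. It is wide, because the software error of the bright members is a flat 10.0% of the intensity. Over the same genes, the 95th percentile of the absolute difference was 0.34, 0.40 and 0.41 in these pairs. Intervals of this width would thus hold 0 for most genes. The SD of a difference between replicate spots was smaller, at 0.09, and nothing is read from this count. The largest differences between drugs were those of the dim *TKTL2*, at -0.45 (-1.19 to 0.28) between OR-2003 and DAC and -0.36 (-1.02 to 0.31) between OR-2100 and DAC. Differences of this size were found in 2.53% and 6.66% of the genes well above background on all arrays, a group that does not hold *TKTL2*. Among the bright members the largest was that of *RPIA*, at -0.22 (-0.62 to 0.18) between OR-2100 and DAC, and 19.5% of genes differed by at least as much. With 1 array per drug, these intervals do not show that the drugs act alike.

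**Figure D1:**
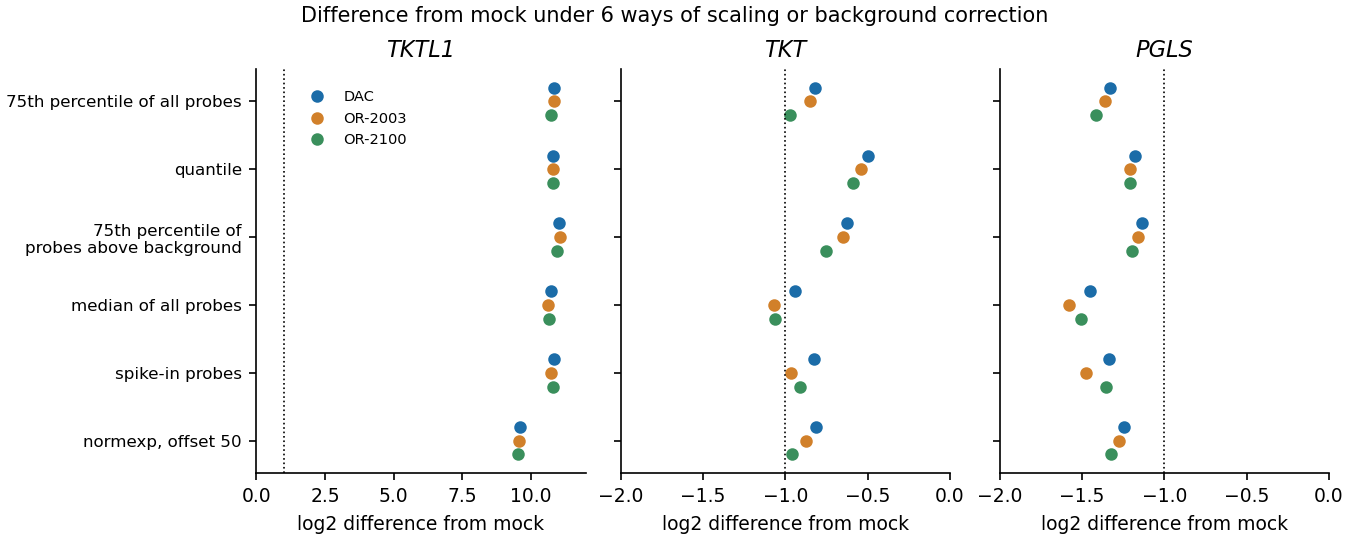
Log2 difference from mock (x axis, a separate scale for each gene) of *TKTL1*, *TKT* and *PGLS* with each drug (DAC in blue, OR-2003 in orange and OR-2100 in green) under 6 ways of scaling or background correction (y axis), with dotted lines at 2-fold. *TKTL1* keeps a difference of at least 9.54, *TKT* lies on both sides of the line, and *PGLS* stays beyond it.

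Around the members, 61 genes of 7 lists of connected metabolism had a named probe. Of these, 5 were induced with all 3 drugs, or 8.20% beside the 5.27% of all named genes. Another 10 were reduced with all 3, or 16.4% beside 5.21%. A reduced call needs a mock level of -1 or more. The lists held mostly genes well above background on all arrays, against 15977 of all 25006 named genes. These shares are thus not like for like, and nothing is read from them. Single drugs induced 5 each and reduced 10 (DAC), 11 (OR-2003) and 12 (OR-2100). Over all named genes, they induced 5.77% to 5.89% and reduced 5.96% to 6.82%, with the same limit. The median difference of the 61 genes was -0.32 with DAC, -0.28 with OR-2003 and -0.34 with OR-2100. Over all named genes it was -0.12, -0.09 and -0.23, and over those well above background on all arrays -0.18, -0.17 and -0.21. When the percentile was taken over bright probes, those well above background on each array, 1 of the 61 was called induced and 4 reduced with all 3 drugs. This zero is higher, so that a level of -1 stands for a brighter spot. The share of all named genes called with this zero is not given, and nothing is read from these counts. *GPX3*, *ME3* and *TXNRD2* lost the call there although their differences with DAC were 3.88, 2.93 and 1.76.

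Among 4 other enzymes at the entry and in the shuffling steps, 1 was induced with all 3 drugs. This was *TIGAR*, a phosphatase known to direct glucose into the pathway, with levels of -0.01 with mock and 1.26, 1.52 and 1.13 with the drugs in turn. Its log2 differences were 1.27, 1.52 and 1.13, and with normexp it was called with 1 of the 3 drugs. *H6PD*, which runs the first oxidative steps in the endoplasmic reticulum, was well above background at -1.92 with mock and on no other array. By its measured levels, which are relative to the zero of each array, it was 4.91-fold lower with DAC, 5.64-fold with OR-2003 and 5.18-fold with OR-2100. These folds are uncertain, since the drug-treated spots could not be told from background. Its mock level was under -1, so it was not called reduced, except with the median of all gene probes, and with normexp its log2 difference with DAC was -0.65.

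Of 9 genes that use ribose 5-phosphate or supply ribose, 1 was reduced and 0 were induced with all 3 drugs. The reduced gene was *RBKS*, a ribokinase, with levels of 1.48 with mock and 0.42, 0.38 and 0.19 with the drugs. It was called with 1 drug under the percentile of bright probes or normexp, and with 2 under quantile normalization. In the thiamine transport and activation list, 0 of 3 genes were called with any drug, and the one with the largest mean difference was *THTPA*, thiamine triphosphatase, at -0.32, -0.28 and -0.26. Of 9 measured genes for other enzymes that use thiamine diphosphate, as transketolase does, 3 were reduced with all 3 drugs. They were *BCKDHA* and *BCKDHB*, subunits of the branched-chain keto acid dehydrogenase, and *DHTKD1*. Of these, *BCKDHB* was called with 2 drugs under normexp and with no drug under the percentile of bright probes. Its differences in the latter setting were still -1.23, -1.13 and -1.20, but its mock level was under -1 with that higher zero. *BCKDHA* went from 3.01 with mock to 1.23 with DAC, 1.22 with OR-2003 and 1.22 with OR-2100, the largest of these reductions. *PDHA2*, the testis form of the pyruvate dehydrogenase subunit, was not well above background with mock. It reached -1.10, -1.17 and -1.29 with the drugs, just under the level of positive expression, and was at least 9.09, 8.68 and 7.95-fold higher. Its measured log2 difference with DAC was 1.10 with normexp, and it was called induced with all 3 drugs there and with the median of all gene probes.

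Glycolytic and gluconeogenic enzymes that share intermediates with the pathway held 1 gene induced and 1 gene reduced with all 3 drugs among 12. *ALDOC* and *GPI* were named after their values were seen. *ALDOC*, an aldolase, had differences of -0.95, -1.07 and -0.91 and was called reduced with OR-2003 alone. *GPI*, glucose phosphate isomerase, had differences of -0.90, -0.998 and -1.21 and was called with OR-2100 alone. Neither was called with any drug under the percentile of bright probes or quantile normalization. With the median of all gene probes, *GPI* was called with 3 drugs and *ALDOC* with 2. With normexp, *GPI* was called with 2 drugs and *ALDOC* with 0. *FBP2*, the muscle form of fructose 1,6-bisphosphatase, was not well above background with mock and had levels of 2.16, 2.22 and 2.24 with the drugs in turn, at least 86.9, 91.2 and 92.0-fold higher. With normexp, *FBP2* had a smaller measured log2 difference, 3.27 with DAC, and stayed induced. *PFKM*, a phosphofructokinase, was reduced, with differences of -1.10, -1.10 and -1.21, but with no drug under the percentile of bright probes (-0.91 with DAC) or quantile normalization (-0.93 with DAC).

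Among 12 genes of other NADPH sources, 3 were reduced and 1 was induced with all 3 drugs. *MTHFD2*, the mitochondrial folate enzyme, had levels of 6.34 with mock and 4.71, 4.62 and 4.53 with the drugs in turn. *IDH1*, the cytosolic isocitrate dehydrogenase, differed by -1.47, -1.46 and -1.50, and *MTHFD1*, the cytosolic folate enzyme, by -1.07, -1.09 and -1.22. *MTHFD1* was called with no drug under the percentile of bright probes (-0.87 with DAC) or quantile normalization (-0.90 with DAC). *ME3*, a mitochondrial malic enzyme, was induced from -3.28 to -0.54, -0.52 and -0.15. *ME1*, the cytosolic malic enzyme, also named after its values were seen, had differences of -0.74, -0.80 and -1.16. It was called reduced with OR-2100 alone, and with no drug under the percentile of bright probes or normexp. *ALDH1L1*, a folate dehydrogenase, was not well above background with mock and stayed under positive expression at -1.68, -1.70 and -1.75 with the drugs. Among 12 genes of the glutathione and thioredoxin systems, which draw on NADPH, 2 were induced and 2 reduced with all 3 drugs. *GPX3*, the secreted glutathione peroxidase, went from -3.57 to 0.12, 0.14 and -0.20, and *TXNRD2*, mitochondrial thioredoxin reductase, from -2.34 to -0.78, -0.69 and -0.81. The dim genes among these depended on the background correction. With normexp, the log2 difference with DAC was 1.69 for *GPX3*, 0.99 for *ME3* and 0.73 for *TXNRD2*, and *TXNRD2* was called with no drug. *GCLC* and *GSS*, which encode the enzymes of glutathione synthesis, had differences of -1.16, -1.15 and -1.19, and of -1.12, -1.23 and -1.31. Under the percentile of bright probes or quantile normalization, *GCLC* was called with no drug and *GSS* with 2.

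The 5 genes whose differences were most like those of *TKTL1* were sought among 21272 named probes well above background on all arrays, by the Euclidean distance over the 3 log2 differences. They were *MEG3* at a distance of 0.55, *VCX2* at 1.80, *FMR1NB* at 2.67, *CTAG1A* at 2.86 and *CT45A5* at 3.00. Since *TKTL1* itself ranked 2 or 3 among probes well above background, the search returned other genes with very large differences. Of the 5, 4 lie on the X chromosome as *TKTL1* does. The share of X-linked genes among the probes searched is not given, and nothing is read from this count. *MEG3*, an imprinted non-coding RNA on chromosome 14, had differences of 10.39, 10.57 and 10.84 at this probe, 1 of its 6. *FMR1NB*, *CTAG1A* and *CT45A5* are cancer-testis genes, and *VCX2* belongs to a testis gene family. *VCX2*, *CTAG1A* and *CT45A5* have near-identical copies, so that their single values are uncertain. The likeness was measured over 3 differences that share the mock array and is a description.

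The genes next to *TKTL1* on the X chromosome had far smaller differences where they were measured. Of the 10 genes on each side in the RefSeq gene order, 10 had a probe, 3 before and 7 after, and 0 were called induced or reduced with any drug. Over all named genes, 5.77% to 5.89% were induced and 5.96% to 6.82% reduced with single drugs, so that 0 of 10 is near the background. The 9 of them well above background on all arrays had differences from -0.87, for the ribosomal protein gene *RPL10*, to 0.59, for the filamin gene *FLNA*. *TEX28*, the nearest gene before *TKTL1*, was well above background on 1 array, that of OR-2003, at -4.12, and was under positive expression on all of them.

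Marker genes of the cell line and of other cell types were read on the same arrays. Of 8 colon epithelial markers, 6 were well above background with mock and 7 on each other array. *KRT8*, *KRT18* and *KRT19* had levels of 6.41 or more on every array, while *CDH17* was not well above background on any. The summed intensity of the 8 markers, relative to the 75th percentile, was 1300.1 with mock and 1581 to 1677 with drugs. *KRT8*, *KRT18*, *KRT19* and *LGALS4* were higher with drugs, by 0.59, 0.59, 0.38 and 2.25 with DAC. *EPCAM* was lower, at 6.81 with mock and 5.32, 5.29 and 5.36 with the drugs in turn. *CDH1* was lower too, at 3.88 with mock and 2.79, 2.70 and 2.63 with the drugs, more than 2-fold with each. The germ cell markers *DDX4*, *DAZL* and *SYCP3* moved with *TKTL1*: 0 of 3 were well above background with mock and 3 of 3 with each drug. Their summed intensity, relative to the 75th percentile, was 0.134 with mock and 7.23 to 8.33 with drugs. Of 3 endothelial markers, 2 were well above background with mock and 3 with drugs, and their sum went from 0.507 to between 2.39 and 2.42. For 4 leukocyte markers the sum went from 0.787 to between 4.58 and 4.85, with *PTPRC* under positive expression on every array. For 5 fibroblast markers it went from 2.21 to between 4.01 and 4.24, with *LUM* not well above background on any array. The part of these genes in the differences of *TKTL1* was not tested.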

How the data were processed

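Total RNA of HML58-3 cells was measured on SurePrint G3 human expression arrays, 1 per condition. The deposited scanner files give, per spot, a background-corrected intensity from Feature Extraction 12.1.0.3 with its error, not normalized between arrays. A series table that the authors deposited holds the same intensity values.

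Gene spots without outlier marks were kept, their log2 values were averaged per probe, and 0 was set at the 75th percentile of all gene probes on an array. Probes counted as well above background if over 0.5 of their spots did. The accessions of the array named 34892 probes by way of RefSeq gene records on another assembly. Where a gene had several probes, that with the highest mean level was used. Named were every member, from each list the genes called with all 3 drugs and that with the largest measured mean difference, which for dim genes is no rank, and the 5 genes most like *TKTL1*. From the lists, 4 genes are not reported here. Members and lists were chosen with earlier results of these data known. The spot error of a difference combines the deposited errors of both intensities in quadrature, and the number of arrays limits the precision. Other scalings, background correction, spot averages and thresholds were tried as alternatives. Python 3.11.15, numpy 2.4.6, pandas 2.3.3, R 4.3.3 and limma 3.58.1 were used.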

Additional observations from a re-analysis of the deposited data

How the results depend on the processing

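*TKTL1* stayed at least 9.54 above mock on the log2 scale under every setting. Its differences were 11.05 (DAC), 11.06 (OR-2003) and 10.97 (OR-2100) when the percentile was taken over bright probes, those well above background on all arrays, and 9.63, 9.59 and 9.54 with normexp background correction. They were 10.73 and 10.64 for DAC and OR-2003 with the median of all gene probes, and 10.74 for OR-2003 relative to spike-in probes, an alternative chosen after seeing the data. The median of all probes moved by 0.20, 0.20 and 0.22 with the percentile of bright probes, by -0.12, -0.22 and -0.09 with the median, and by 0.23 for OR-2100 with quantile normalization. Induced members numbered 2 with each drug, *TKTL2* being the second, without the level threshold or with the median, which moves the level that -1 stands for. Reduced members numbered 0 with each drug at a 4-fold threshold, and 2 with OR-2003 and OR-2100, *TKT* being the second, with the median. *TALDO1* was above mock in 19 of 30 combinations of setting and drug and below it in 11, and each other member kept its sign in all 30. For *TKTL2*, the measured difference was as low as 0.09 with normexp, whose offset by itself shrinks the differences of dim genes. Of the 61 list genes, 3 were induced and 8 reduced with all 3 drugs with normexp, 5 and 5 with quantile normalization, and 9 and 12 with the median. The share of all named genes called under these alternatives is not given. Nothing is thus read from the counts of members or list genes under them.

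Normexp was planned on the mean intensity and was run on the median intensity. The series table, keeping marked spots, the median over spots, a floor at the background limit and a level threshold of 0 left the counts of called members as they were. Each member has 1 probe, so that averaging probes gave no other value. No paired analysis was possible because the groups hold 1 array each, and none was left out for the same reason.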
